A study of Mus musculus with 6 samples.

Results

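The genes described here encode the isozymes of glycolysis and gluconeogenesis, the transporters that bring in glucose and carry lactate, and the enzymes that pass pyruvate on to mitochondria. They were chosen by name as 40 mouse genes. A gene was taken where a probe set of the array carried its symbol in the platform annotation, and 36 of the 40 had 1 probe set each, among 19505 genes and 22206 transcript probe sets in all. Gpi1, Pfkfb1, Pfkfb2 and Eno1 are not analysed here.

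The values come from 6 single-colour arrays of RNA labelled as colon crypt, the epithelial gland of the large bowel, from C57BL/6J mice. In the MBELN group (n = 3) the mice were gavaged for 7 days with MBELN, exosome-like nanoparticles from mulberry bark. The PBS group (n = 3) came from control mice, and the label gives neither the ages nor whether each array is a separate mouse. A p-value here thus rests on the variation among these 6 arrays, part of which can be technical. Arrays are named by their titles, and all values are the deposited ones, read as log2 because of their range. Odorant and pheromone receptors are hardly expressed outside sensory tissue, and the 95th percentile of their 1414 probe sets (3.99 to 4.44, by array) served as the level for dim values, called the receptor level here.

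Glycolysis splits glucose into pyruvate and yields energy without oxygen, and gluconeogenesis runs the reversible steps backwards with its own enzymes at the irreversible ones. Most steps are catalysed by several isozymes encoded by separate genes, and tissues differ in which of them they use. Muscle and heart, brain, liver and gut epithelium each have a characteristic set. Colon epithelium takes up butyrate, which gut bacteria make, through monocarboxylate transporters, and burns it for energy.

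Several arrays went against their label in the genes that mark tissues, and the results below are read with this in view. The 16 gut epithelial genes had medians of 5.68, 3.42 and 5.24 in MBELN 1, 2 and 3, against 17.78, 17.68 and 17.87 in PBS 1, 2 and 3. All 12 heart muscle genes exceeded the receptor level in MBELN 1 and MBELN 3 (medians 18.43 and 18.70), and 3 of 12 did so in MBELN 2. In MBELN 2, all 11 neuronal genes (median 15.56) and all 6 glial genes did so, and neuronal medians were 3.55 to 4.05 in the other arrays. All 8 measured colon genes lay above the level in PBS 2 (median 15.44), whereas 1 to 3 of the 8 did in each of the other 5 arrays. The median of 13 small intestinal genes was 18.68 in PBS 1 and 18.92 in PBS 3, but 4.76 in PBS 2. Smooth muscle genes had medians of 11.37, 3.31 and 11.33 in MBELN 1, 2 and 3, against 15.67, 17.90 and 15.75 in PBS 1, 2 and 3. All 5 liver genes lay above the level in PBS 2 (median 10.64), where Alb, which encodes albumin, read 17.59, and liver medians were 3.64 to 4.67 in the other arrays. Skeletal muscle medians were 3.02 to 3.49 in all 6. The labels were kept here, and which tissue each array came from was not tested. In such bulk samples, fewer cells of a type and less RNA per cell cannot be told apart.

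**Figure D1:**
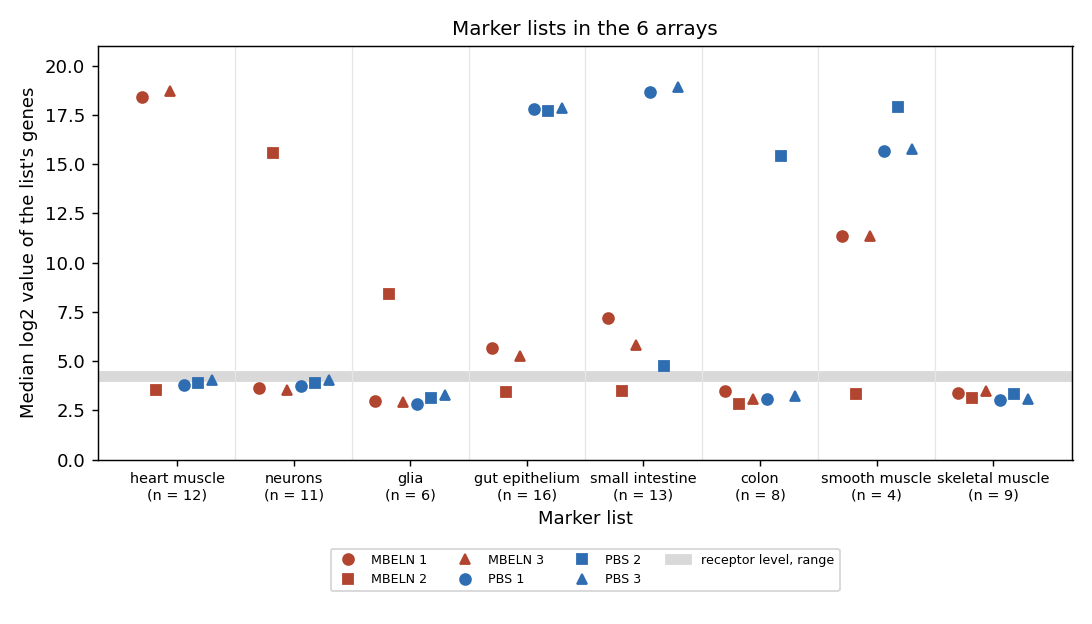
Median log2 value of each marker list (x axis, with the number of measured genes) in each array (MBELN arrays in red, PBS arrays in blue, symbol shape for the replicate number). The grey band is the range of the receptor level over the 6 arrays. Heart muscle genes stand high in MBELN 1 and 3, neuronal and glial genes in MBELN 2, colon genes in PBS 2 and small intestinal genes in PBS 1 and 3.

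The study set MBELN against PBS to find transcripts that differ after the gavage. Among the 36 measured members, Ldhb and Pfkm were higher and Pklr and Fbp1 were lower in MBELN than in PBS (limma, Benjamini-Hochberg adjusted p under 0.05 over all 22206 probe sets). The other 32 did not pass, and 9 members had an unadjusted p under 0.05. The 4 called members are 11.1% of the 36, beside 5.18% of all transcript probe sets. By direction, 2 were higher and 2 lower, where 1.42% and 3.76% of all probe sets were. The 3 MBELN values lay entirely above the 3 PBS values for 6 members and entirely below for 7, beside 11.9% and 13.4% of all probe sets. Together these are 36.1% of the members, beside 25.3% of all probe sets. The median difference over the members was 0.83, and over all probe sets 0.09. The filter on dim probe sets (above the receptor level in at least 3 arrays) kept 31 of the 36 and 12083 of all probe sets. The 4 called members were 12.9% of those 31, beside 11.1% of those 12083, so the shares were near each other. In every array 1 member, Hk3, lay below the receptor level, where values have no order. Hk3 is 1 of the 7 counted as entirely below. Without it, 12 of 35 members did not overlap (34.3%), beside 30.8% of the 15801 probe sets above the receptor level in at least 1 array.

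**Figure D2:**
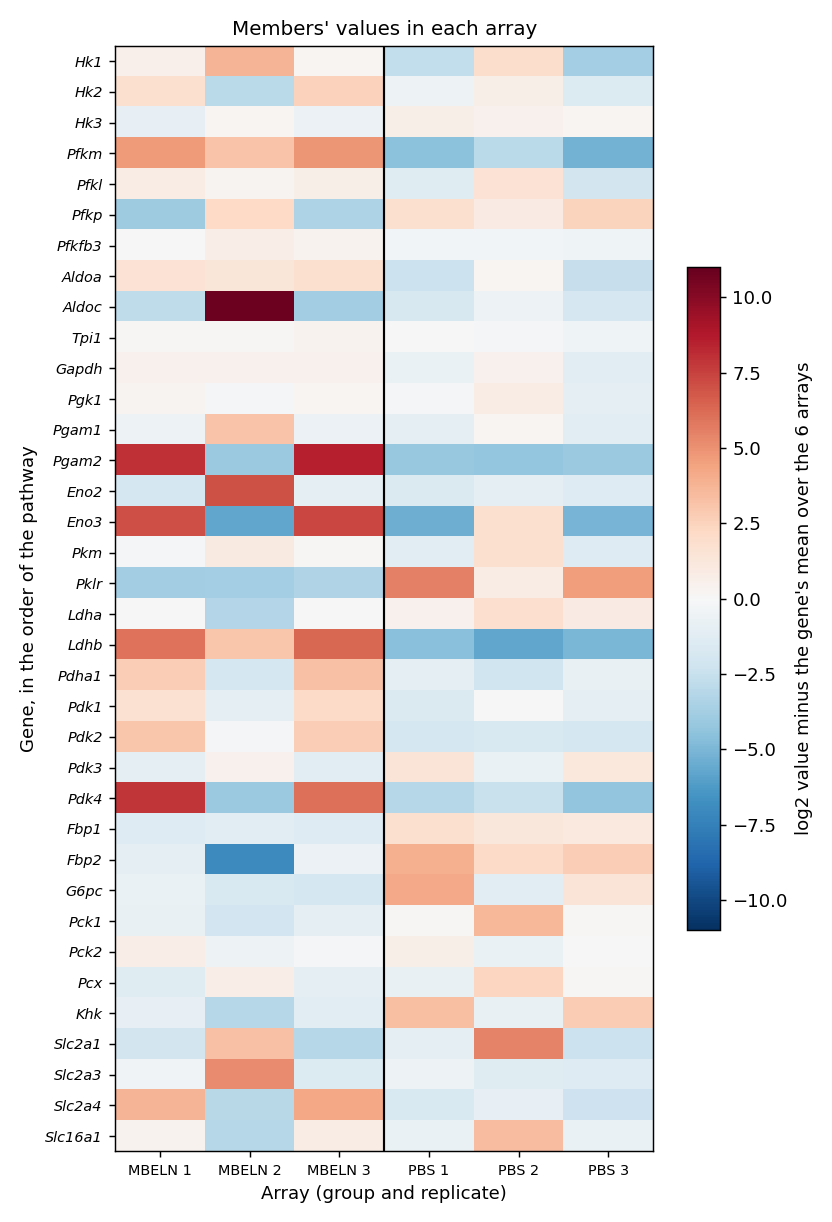
Each row is a member and each column an array, with MBELN left of PBS. Colour gives the log2 value minus that gene's mean over the 6 arrays, so rows can be compared across arrays but not with each other. Pfkm and Ldhb are high in all 3 MBELN arrays. Pgam2, Eno3 and Pdk4 are high in MBELN 1 and 3, and Aldoc and Eno2 in MBELN 2.

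Pfkm encodes the muscle form of phosphofructokinase, the enzyme that commits sugar to glycolysis. It read 14.43, 12.82 and 14.60 in MBELN 1, 2 and 3, against 5.19, 6.73 and 4.51 in PBS 1, 2 and 3. The groups were far apart, with every MBELN array above 12 and every PBS array below 7. The means were 13.95 ± 0.98 in MBELN and 5.48 ± 1.14 in PBS (log2, SD, n = 3), and Pfkm rose by 8.47 ± 0.77 (SE; limma, adjusted p = 0.00452). Pfkm was called in all 6 settings that left out 1 array, with adjusted p between 0.00101 and 0.0376.

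Ldhb encodes the heart type subunit of lactate dehydrogenase, which favours the oxidation of lactate to pyruvate. Its values were 16.70, 13.82 and 17.04 in MBELN 1, 2 and 3, against 6.17, 5.04 and 5.68 in PBS 1, 2 and 3. MBELN 2 was the lowest of the MBELN arrays and still far above each PBS array. Ldhb rose by 10.23 ± 0.93 (log2, SE, n = 3 each; limma, adjusted p = 0.00464), and the adjusted p lay between 0.000136 and 0.0356 when any 1 array was left out. Ldha, the muscle type subunit, read 17.62, 14.38 and 17.52 in MBELN 1, 2 and 3, against 18.02, 19.42 and 18.43 in PBS 1, 2 and 3. The groups did not overlap for Ldha either, with MBELN 2 the lowest, and the difference of -2.12 ± 0.99 did not pass (limma, adjusted p = 0.344).

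Pklr encodes the liver and red cell pyruvate kinase, which performs the last step of glycolysis in gut, liver and kidney. It read 3.56, 3.62 and 4.09 in MBELN 1, 2 and 3, all below the receptor level, against 12.93, 8.20 and 11.95 in PBS 1, 2 and 3. Among the PBS arrays, PBS 2 was the lowest. Pklr fell by at least 105-fold (limma on the deposited values, difference -7.27 ± 1.24, adjusted p = 0.0332, n = 3 each). Leaving out PBS 1 (adjusted p = 0.112), PBS 3 (0.149), MBELN 1 (0.128) or MBELN 3 (0.12) ended the call, though the difference stayed between -8.68 and -6.32 over all 6 settings that leave out 1 array. Small intestinal markers had medians of 18.68 and 18.92 in PBS 1 and PBS 3, where Pklr was highest, and their part in this result was not tested.

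Fbp1 encodes the liver form of fructose-bisphosphatase, which opposes phosphofructokinase in gluconeogenesis. The 3 MBELN arrays read less than their receptor levels (2.82, 2.95 and 2.86 in MBELN 1, 2 and 3) and the PBS arrays more (5.99, 5.45 and 5.32 in PBS 1, 2 and 3). Fbp1 fell by at least 2.43-fold (limma, difference -2.71 ± 0.29, adjusted p = 0.00798, n = 3 each), the smallest change of the 4. Its adjusted p was between 0.00429 and 0.0476 when any 1 array was left out.

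The groups of the 4 called members did not overlap, so every split of the arrays gives each change the same direction. The arrays were split by hybridisation control level, into higher (MBELN 1 and 3 against PBS 2) and lower (MBELN 2 against PBS 1 and 3). The differences at the higher and lower level were 7.78 and 7.97 for Pfkm, and 11.83 and 7.90 for Ldhb. Those of Pklr were -4.38 and -8.82, and those of Fbp1 -2.62 and -2.70. These are values with 1 array on one side and are not tests. At each level the groups also differed in tissue markers. In MBELN 2, where heart muscle genes had a median of 3.53 and neuronal genes one of 15.56, Pfkm differed from the PBS mean by 7.35 and Ldhb by 8.19. The part of heart muscle, brain or gut epithelial RNA in the 4 changes was not tested. Gut epithelial medians were 3.42 to 5.68 in MBELN and 17.68 to 17.87 in PBS. The gavage and the tissue content of the arrays thus cannot be told apart in the 4 changes.

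The count of called members depended on which arrays entered. With PBS 2 and MBELN 2 left out, 26 of the 36 members passed (72.2%, beside 30.5% of all probe sets), in a setting chosen with the arrays' markers known. Of these, 16 were higher and 10 lower, beside 15.1% and 15.4% of all probe sets. Without MBELN 2 alone it was 14, or 38.9%, beside 16.8% of all probe sets. Without PBS 2 alone, 7 passed, beside 7.21% of all probe sets. The 4 calls named above were among the calls in each of these 3 settings. Over the 6 arrays, the median range of a member was 5.63 log2 units, beside 1.95 for all transcript probe sets and 2.87 for the 15801 that lay above the receptor level in at least 1 array.

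The promoters of the 4 genes printed here show the motifs searched in the members that rose (Pfkm and Ldhb), in an isozyme of one of them that did not pass (Ldha) and in a member that stood high in 2 arrays (Pgam2). The sequences are from RefSeq, build GRCm38.p6, 250 bases before to 50 after a gene's start, written 5′ to 3′ on the gene's strand, and 34 of the 36 measured members matched, with 48 entries. Capitals mark ACGTG, the core of the hypoxia response element, on either strand in Pfkm and Ldha, and the MEF2 site in Pgam2. The Pfkm entry, at chr15:98092339-98092638 on the plus strand, is 1 of 4 for that gene, and the Ldha entry, at chr7:46845554-46845853 on the plus strand, is 1 of 2. Both were printed because they are the first entry of their gene that holds ACGTG. Another Pfkm entry holds it as well, and the remaining Pfkm entries and the other Ldha entry do not. Ldhb, at chr6:142507908-142508207 on the minus strand, holds neither ACGTG nor the other motifs, which says only that these letters are not in this window. Pgam2 is at chr11:5803747-5804046 on the minus strand, with the MEF2 site beginning at -80.
Pfkm: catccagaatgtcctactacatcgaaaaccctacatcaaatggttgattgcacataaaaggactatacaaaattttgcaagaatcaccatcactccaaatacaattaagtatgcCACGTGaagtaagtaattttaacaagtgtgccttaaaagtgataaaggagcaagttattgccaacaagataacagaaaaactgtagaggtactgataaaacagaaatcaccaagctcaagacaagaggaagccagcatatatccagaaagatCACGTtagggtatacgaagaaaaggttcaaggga
Ldha: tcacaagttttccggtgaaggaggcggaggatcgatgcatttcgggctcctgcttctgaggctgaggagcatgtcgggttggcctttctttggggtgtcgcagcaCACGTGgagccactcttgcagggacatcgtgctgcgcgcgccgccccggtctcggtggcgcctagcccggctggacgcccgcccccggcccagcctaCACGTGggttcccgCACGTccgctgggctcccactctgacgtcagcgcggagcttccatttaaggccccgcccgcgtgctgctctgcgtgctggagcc
Ldhb: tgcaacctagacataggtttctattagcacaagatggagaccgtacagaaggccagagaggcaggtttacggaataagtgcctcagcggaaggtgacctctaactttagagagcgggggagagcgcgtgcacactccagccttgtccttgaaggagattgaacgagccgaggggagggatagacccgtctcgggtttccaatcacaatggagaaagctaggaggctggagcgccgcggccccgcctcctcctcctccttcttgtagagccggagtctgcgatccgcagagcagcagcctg
Pgam2: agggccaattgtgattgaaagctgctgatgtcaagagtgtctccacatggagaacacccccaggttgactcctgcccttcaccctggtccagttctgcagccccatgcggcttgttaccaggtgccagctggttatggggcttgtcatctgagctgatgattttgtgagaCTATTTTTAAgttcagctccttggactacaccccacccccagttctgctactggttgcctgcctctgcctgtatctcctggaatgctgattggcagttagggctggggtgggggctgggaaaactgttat

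Of the 48 member entries, 22 (45.8%) held ACGTG on either strand, and 19.6% of all 32851 promoters in the table did. The E-box CACGTG, which holds ACGTG, was in 8 of the 48 (16.7%) and in 7.15% of all. GGGCGG, the GC box, was in 22 entries (45.8%) and in 35.7% of all. The MEF2 site was in 1 entry, that of Pgam2 (2.08%), and in 3.19% of all. A match is a description of the letters and not a binding site. Members with ACGTG included Pfkm, which rose, and Aldoa, Pdk2 and Pfkfb3, whose MBELN values all lay above their PBS values without passing the threshold. They also included Khk, Ldha and Fbp2, whose MBELN values all lay below their PBS values without passing the threshold. Hk3, dim in every array, held ACGTG too, and the groups overlapped for the remaining members with it.

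Isozymes of a step were next compared with each other in every array. Since probe sets differ in brightness, the difference of 2 isozymes has a meaning only as it changes between arrays. Where an isozyme lay below the receptor level in an array, its difference there has no exact size. Of 18 pairs, 14 had both members measured. The two-sided exact permutation test over 3 against 3 arrays cannot go below 0.1, and after Benjamini-Hochberg adjustment over the 14 pairs the smallest value was 0.2. No pair can therefore pass a threshold of 0.05.

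Over all 6 arrays, lactate dehydrogenase had the largest shift of the 14 pairs, whereas without MBELN 2 that of Pgam2 minus Pgam1 was larger (12.44, and 12.30 for Ldhb minus Ldha), as it was without PBS 2 and MBELN 2 (11.95 and 11.61). Ldhb minus Ldha was -0.92, -0.56 and -0.47 in MBELN 1, 2 and 3, against -11.85, -14.39 and -12.75 in PBS 1, 2 and 3. The 3 MBELN arrays lay within 0.5 log2 units of each other, and all lay more than 10 above PBS. The shift was 12.35 (means -0.65 ± 0.24 in MBELN and -13.00 ± 1.28 in PBS, SD, n = 3; exact permutation p = 0.1, adjusted 0.2).

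The pair of phosphofructokinases also separated the groups. Pfkm minus Pfkl, the second being the liver form, was 4.26, 3.20 and 4.64 in MBELN 1, 2 and 3, against -2.85, -4.20 and -2.85 in PBS 1, 2 and 3. All MBELN arrays lay above all PBS arrays, with a shift of 7.33 (exact permutation p = 0.1, adjusted 0.2, n = 3 each). Pfkl itself read 10.17, 9.62 and 9.96 in MBELN 1, 2 and 3, against 8.04, 10.93 and 7.36 in PBS 1, 2 and 3, so the groups overlapped and PBS 2 was highest. Pfkp, the platelet form that brain also uses, followed another order, with 7.28, 13.39 and 7.82 in MBELN 1, 2 and 3, against 13.00, 12.13 and 13.64 in PBS 1, 2 and 3. Its value in MBELN 2 lay within the PBS range, and MBELN 1 and 3 were lower than every PBS array. Pfkfb3, which makes the fructose bisphosphate that activates phosphofructokinase, had 3 MBELN values (5.83 to 6.61) above the 3 PBS values (5.41 to 5.55), with a difference of 0.74 ± 0.30 (SE; limma, adjusted p = 0.291).

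For pyruvate kinase the shift had the opposite sign. Pklr minus Pkm was -13.61, -14.62 and -13.29 in MBELN 1, 2 and 3, against -3.07, -10.82 and -3.92 in PBS 1, 2 and 3. All MBELN arrays lay below all PBS arrays, and PBS 2 was nearest to them. The shift was -7.91 (exact permutation p = 0.1, adjusted 0.2, n = 3 each). With dim values set at the receptor level it was -7.35, as Pklr lay below that level in MBELN. Pkm, the form of muscle, brain and dividing cells, read 17.17, 18.24 and 17.38 in MBELN 1, 2 and 3, against 16.00, 19.02 and 15.86 in PBS 1, 2 and 3, and PBS 2 was the highest of the 6. The annotation gives Pkm 1 probe set, so its splice forms are not separated here.

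**Figure D3:**
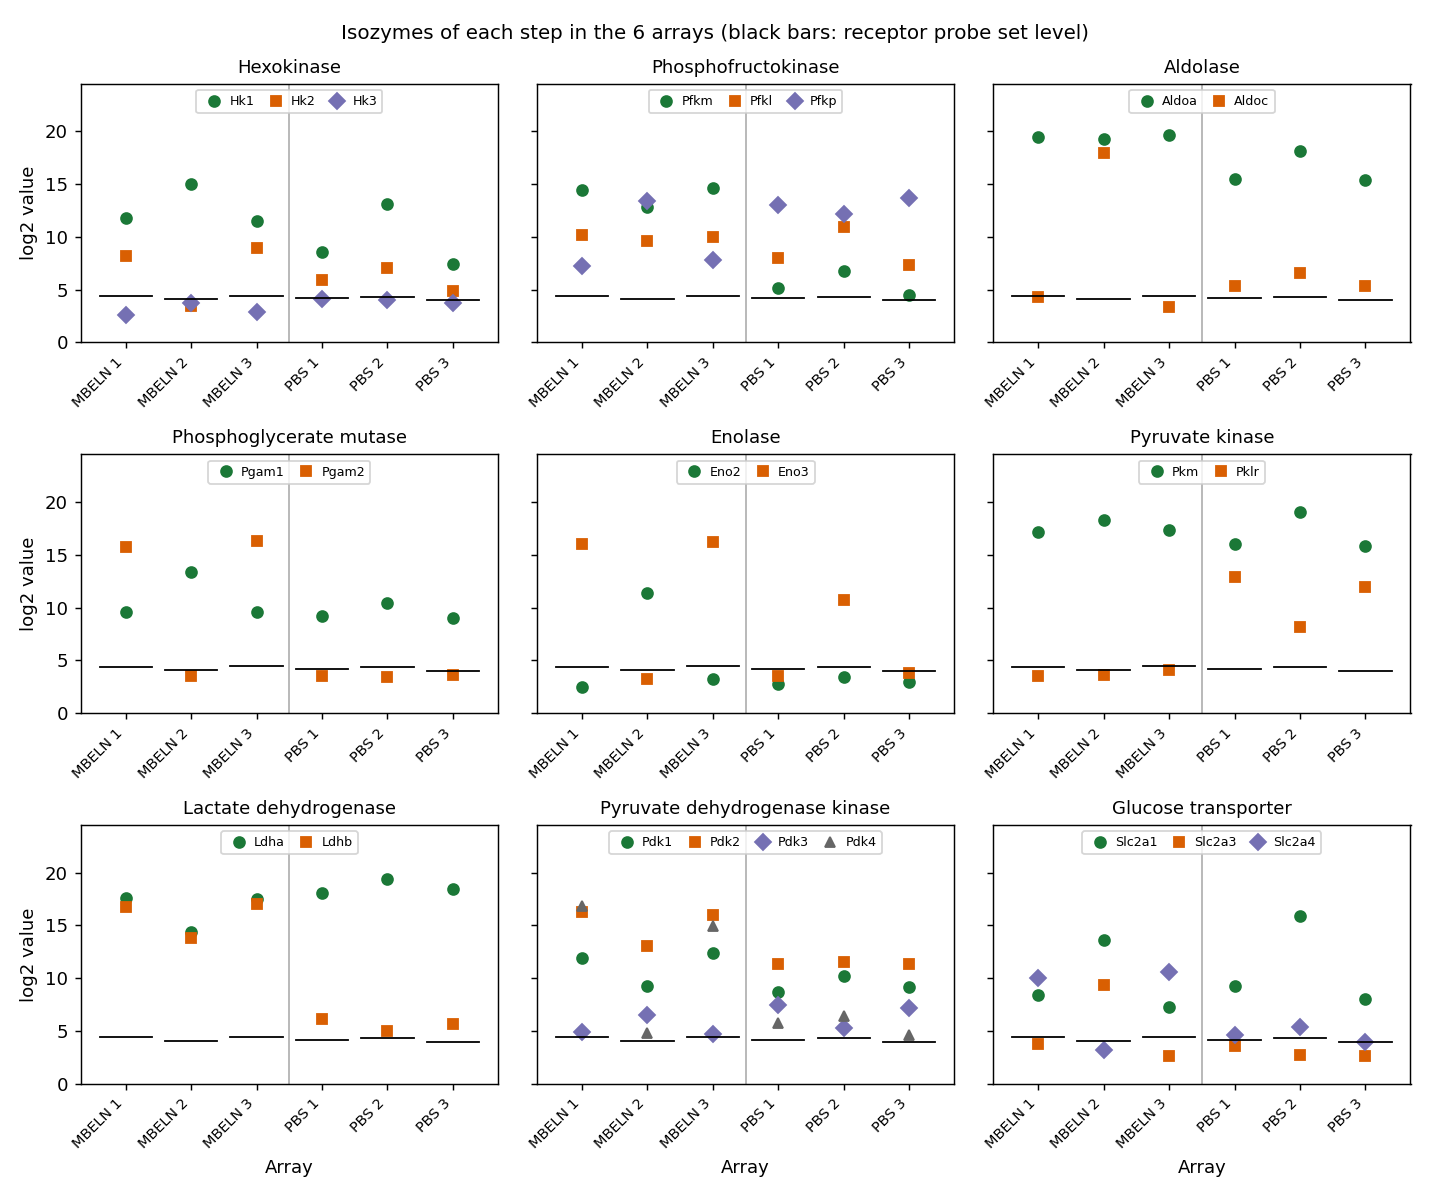
Log2 value of each isozyme (y axis) in each array (x axis, MBELN left of PBS), 1 panel a step. Black bars give the receptor level of that array. Symbols of one gene can be compared across arrays, and different genes of a panel only by how they change. Ldhb and Pfkm stand above 12 in the MBELN arrays, Pklr stands below the level there, and Pgam2, Eno3, Pdk4 and Slc2a4 are high in MBELN 1 and 3 while Aldoc, Eno2 and Slc2a3 are high in MBELN 2.

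Several other isozymes were high in 1 or 2 arrays of a group, and Aldoa separated the groups. Pfkp, Hk1, Hk2, Pgam1, Pgam2, Eno2, Eno3, Aldoa, Aldoc, Tpi1, Pdha1, Pdk4, Khk, Slc2a4 and Slc16a1 were singled out after their values were seen. Pgam2, the muscle phosphoglycerate mutase, read 15.72, 3.56 and 16.25 in MBELN 1, 2 and 3, against 3.49, 3.40 and 3.63 in PBS 1, 2 and 3. It was thus high in MBELN 1 and 3 and below the receptor level in MBELN 2 and all PBS arrays. Eno3, the muscle enolase, read 16.04, 3.21 and 16.23 in MBELN 1, 2 and 3, against 3.55, 10.72 and 3.77 in PBS 1, 2 and 3. MBELN 1 and 3 were highest, PBS 2 stood in between and the other 3 arrays lay below the level. Neither passed over all arrays (limma, adjusted p = 0.297 and 0.539). By group means Pgam2 was higher in MBELN, with 2 of the 3 MBELN arrays above the level, so that fold has no exact size. Heart muscle genes had medians of 18.43 and 18.70 in the 2 arrays in which Pgam2 and Eno3 were highest, and 9 skeletal muscle genes had medians of 3.39 and 3.49 there. The part of heart muscle RNA in these values was not tested.

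Without PBS 2 and MBELN 2, both lay below the receptor level in PBS 1 and PBS 3. In that setting Pgam2 was at least 3805-fold and Eno3 at least 4229.6-fold higher in MBELN (2 arrays a group; limma, adjusted p = 2.22e-06 and 2.09e-06). These set the arrays with heart muscle markers against those with small intestinal markers. Pgam1, the form of most other tissues, read 9.59, 13.34 and 9.54 in MBELN 1, 2 and 3, against 9.22, 10.42 and 8.97 in PBS 1, 2 and 3, with MBELN 2 the highest. Pgam2 minus Pgam1 was 6.12, -9.78 and 6.71 in MBELN 1, 2 and 3, against -5.73, -7.02 and -5.34 in PBS 1, 2 and 3. The MBELN group held both the highest and the lowest of the 6 values (exact permutation p = 0.4, adjusted 0.467, n = 3 each).

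Aldoc and Eno2, the aldolase of brain and the enolase of neurons, were high in MBELN 2 alone. Aldoc read 4.33, 17.94 and 3.33 in MBELN 1, 2 and 3, against 5.35, 6.55 and 5.31 in PBS 1, 2 and 3. Eno2 read 2.46, 11.35 and 3.27 in MBELN 1, 2 and 3, against 2.74, 3.40 and 2.93 in PBS 1, 2 and 3. For both genes 5 of the 6 arrays stayed under 7, and for Eno2 those 5 lay below the receptor level. The Aldoc difference changed its sign without PBS 2 and MBELN 2, to -1.50 ± 0.41 (limma, adjusted p = 0.0326). Aldoc lay below the receptor level in MBELN 1 and MBELN 3, so in that setting it was at least 1.89-fold lower in MBELN. Neuronal genes had a median of 15.56 in MBELN 2 and glial genes of 8.41, and their part in these values was not tested. Aldoa, the muscle aldolase that most tissues share, read 19.44, 19.25 and 19.67 in MBELN 1, 2 and 3, against 15.50, 18.10 and 15.34 in PBS 1, 2 and 3. Its MBELN values all lay above the PBS values, and the difference of 3.14 ± 0.79 did not pass (limma, adjusted p = 0.104).

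Hexokinases trap glucose in the cell. Hk1, the form of brain and red cells, read 11.76, 14.99 and 11.47 in MBELN 1, 2 and 3, against 8.54, 13.14 and 7.47 in PBS 1, 2 and 3. MBELN 2 and PBS 2 were the 2 highest arrays, so the groups overlapped. Hk2, the insulin-responsive form of muscle, read 8.21, 3.45 and 8.97 in MBELN 1, 2 and 3, against 5.89, 7.08 and 4.88 in PBS 1, 2 and 3. MBELN 1 and 3 were highest and MBELN 2, the lowest array, lay below the level. Hk2 minus Hk1 accordingly ranged from -11.54 in MBELN 2 to -2.50 in MBELN 3, with PBS values between -6.06 and -2.59 (exact permutation p = 0.7, adjusted 0.754, n = 3 each).

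Enzymes of the middle of the pathway that have no isozyme here varied less. Tpi1, triose phosphate isomerase, read 15.84, 15.87 and 16.14 in MBELN 1, 2 and 3, against 15.74, 15.65 and 15.25 in PBS 1, 2 and 3, the narrowest range of the 36 members at 0.89. Its 3 MBELN values still lay above the 3 PBS values, with a difference of 0.40 ± 0.28 (limma, adjusted p = 0.525). Gapdh, glyceraldehyde phosphate dehydrogenase and a common reference gene, read 19.90, 19.93 and 19.93 in MBELN 1, 2 and 3, against 18.72, 19.91 and 18.32 in PBS 1, 2 and 3. Those of MBELN 1, 2 and 3 and PBS 2 lay at the top of the scale, whose highest value was 19.93, so differences among them may be understated. PBS 1 and PBS 3 were lower. Pgk1, phosphoglycerate kinase, ranged from 13.39 to 15.20 with PBS 2 highest and PBS 3 lowest. Gapdh, Pgk1, Tpi1, Pgam1 and Ldha have processed pseudogenes in the mouse, and how the probe sets treat such copies is not given in the sources used here.

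**Figure D4:**
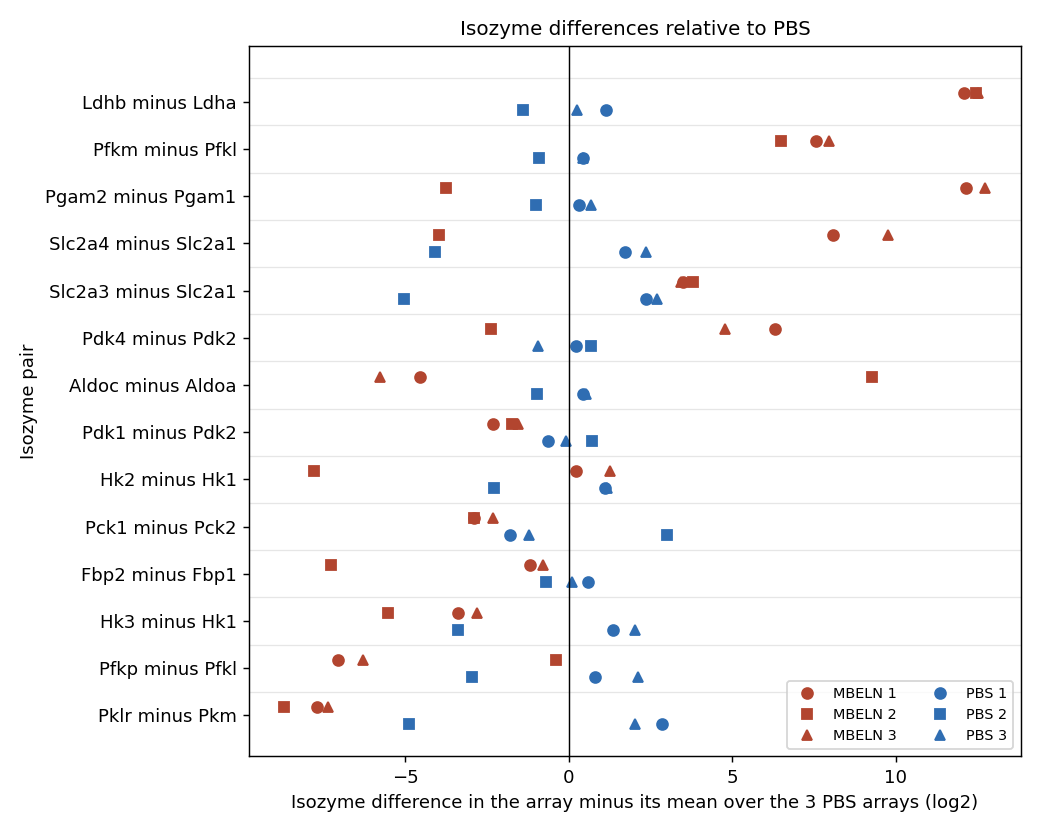
For each of the 14 pairs (y axis), the isozyme difference in an array minus its mean over the 3 PBS arrays (x axis, log2). MBELN arrays are red and PBS arrays blue, with the symbol for the replicate number. Ldhb minus Ldha and Pfkm minus Pfkl lie far above PBS in all 3 MBELN arrays, whereas Aldoc minus Aldoa and Pgam2 minus Pgam1 split the MBELN arrays.

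Pyruvate enters the mitochondrial cycle through pyruvate dehydrogenase, of which Pdha1 encodes a catalytic subunit, and the Pdk kinases shut it. Pdha1 read 15.01, 10.33 and 15.50 in MBELN 1, 2 and 3, against 11.30, 10.05 and 11.45 in PBS 1, 2 and 3, with MBELN 1 and 3 highest and MBELN 2 near the PBS arrays. Pdk2 read 16.28, 13.02 and 15.98 in MBELN 1, 2 and 3, against 11.35, 11.55 and 11.32 in PBS 1, 2 and 3. All MBELN arrays were above all PBS arrays, which lay within 0.3 of each other, and the difference of 3.68 ± 0.91 (SE) did not pass (limma, adjusted p = 0.0956). Pdk1 read 11.89, 9.22 and 12.35 in MBELN 1, 2 and 3, against 8.65, 10.20 and 9.15 in PBS 1, 2 and 3. Its groups overlapped, with MBELN 1 and 3 highest. Pdk1 minus Pdk2 was lower in every MBELN array, at -4.39, -3.80 and -3.62 in MBELN 1, 2 and 3 against -2.70, -1.35 and -2.17 in PBS 1, 2 and 3 (shift -1.87, exact permutation p = 0.1, adjusted 0.2, n = 3 each).

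Pdk4, the kinase that fasting and fat oxidation induce in heart and muscle, read 16.79, 4.86 and 14.97 in MBELN 1, 2 and 3, against 5.79, 6.46 and 4.61 in PBS 1, 2 and 3. It stood 8 or more log2 units above the PBS arrays in MBELN 1 and 3 and within the PBS range in MBELN 2. Over all arrays its difference was 6.58 ± 3.16 (SE; limma, adjusted p = 0.357), and without PBS 2 and MBELN 2 it was 10.68 ± 0.67 (adjusted p = 4.06e-05). Pdk3 ranged from 4.75 to 6.50 in MBELN and from 5.29 to 7.44 in PBS, and the groups overlapped.

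Of the gluconeogenic genes, Fbp1 alone passed the threshold. G6pc, glucose phosphatase of liver, kidney and small intestine, read 3.85, 2.95 and 2.64 in MBELN 1, 2 and 3, against 8.78, 3.32 and 5.97 in PBS 1, 2 and 3. It was above the receptor level in PBS 1 and PBS 3 only, so a fold by group means has no exact size. It was lower in MBELN by group means, which did not pass (limma, difference -2.88 ± 1.38, adjusted p = 0.357). Fbp2, the muscle form of fructose-bisphosphatase, read 9.30, 3.33 and 9.71 in MBELN 1, 2 and 3, against 14.23, 12.43 and 13.07 in PBS 1, 2 and 3. The groups did not overlap, MBELN 2 lay below the level, and the difference was -5.80 ± 1.80 (limma, adjusted p = 0.169). Fbp2 minus Fbp1 had a shift of -3.08 (exact permutation p = 0.1, adjusted 0.2, n = 3 each), and one of -0.99 without MBELN 2. Fbp1 lay below the level in every MBELN array, and Fbp2 in MBELN 2, so these shifts have no exact size.

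Pck1 and Pck2 encode the cytosolic and mitochondrial forms of phosphoenolpyruvate carboxykinase. Pck1 read 4.92, 3.62 and 4.63 in MBELN 1, 2 and 3, against 5.88, 9.36 and 5.86 in PBS 1, 2 and 3. PBS 2 was highest, and all MBELN values lay below all PBS values (difference -2.64 ± 1.06, SE; limma, adjusted p = 0.278). Liver genes had a median of 10.64 in PBS 2, and their part in this value was not tested. Pck2 read 6.13, 4.84 and 5.25 in MBELN 1, 2 and 3, against 6.00, 4.66 and 5.38 in PBS 1, 2 and 3, with groups that overlapped. Pck1 minus Pck2 had a shift of -2.71 (exact permutation p = 0.1, adjusted 0.2, n = 3 each) and one of -1.20 without PBS 2. Pcx, pyruvate carboxylase, ranged from 4.06 to 6.18 in MBELN and from 4.58 to 7.80 in PBS. Khk, the ketohexokinase that phosphorylates dietary fructose in gut and liver, read 8.99, 6.72 and 8.59 in MBELN 1, 2 and 3, against 13.20, 9.07 and 12.66 in PBS 1, 2 and 3. PBS 1 and 3 were highest, and the difference of -3.54 ± 1.26 did not pass (limma, adjusted p = 0.226), but it did without PBS 2, where Khk was lower than in the other PBS arrays.

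Transporters also differed between arrays of 1 group. Slc2a1, the glucose carrier of most tissues, read 8.36, 13.60 and 7.25 in MBELN 1, 2 and 3, against 9.30, 15.90 and 8.06 in PBS 1, 2 and 3. PBS 2 and MBELN 2 were the 2 highest arrays. Slc2a3, the neuronal carrier, read 3.77, 9.32 and 2.60 in MBELN 1, 2 and 3, against 3.56, 2.77 and 2.67 in PBS 1, 2 and 3. It was above the receptor level in MBELN 2 alone, so a fold by group means has no exact size (limma, difference 2.23 ± 1.77, adjusted p = 0.579). Slc2a3 minus Slc2a1 had a shift of 3.58 (exact permutation p = 0.1, adjusted 0.2, n = 3 each), and one of 1.06 without PBS 2. Slc2a3 lay below the level in all arrays but MBELN 2, so these shifts have no exact size.

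Slc2a4, the insulin-responsive carrier of heart, muscle and fat, read 10.02, 3.22 and 10.59 in MBELN 1, 2 and 3, against 4.62, 5.40 and 4.003 in PBS 1, 2 and 3. MBELN 1 and 3 stood highest and MBELN 2 below the level. Slc16a1, a monocarboxylate carrier for lactate and butyrate, read 11.42, 7.90 and 11.89 in MBELN 1, 2 and 3, against 10.38, 14.44 and 10.37 in PBS 1, 2 and 3. It was highest in PBS 2, the array with colon markers, and lowest in MBELN 2. Its difference over all arrays was -1.32 ± 1.57 (limma, adjusted p = 0.707), and without PBS 2 and MBELN 2 it was 1.28 ± 0.34 (adjusted p = 0.0267), with the opposite sign.

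Counted by the array in which each member read highest, 10 members peaked in MBELN 3, 3 in MBELN 1, 7 in MBELN 2, 7 in PBS 1, 1 in PBS 3 and 8 in PBS 2. Those of MBELN 2 were Hk1, Pfkfb3, Aldoc, Gapdh, Pgam1, Eno2 and Slc2a3. Those of PBS 2 were Pfkl, Pgk1, Pkm, Ldha, Pck1, Pcx, Slc2a1 and Slc16a1. Members above the receptor level numbered 28, 26 and 28 of 36 in MBELN 1, 2 and 3, and 31 in each PBS array.

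Other genes of the pathway were read from lists written beside the members, with earlier results of these data known. Their shares are set beside all probe sets, which include dim ones. Of the probe sets that the dim filter kept, 11.1% passed. Of 43 measured further enzymes and carriers, 3 rose, 3 fell and 37 did not pass (14.0% called, beside 5.18% of all probe sets, with 1.42% higher and 3.76% lower), with a median difference of 0.16. The transaminases of the malate-aspartate shuttle were both among those that rose. Got1, the cytosolic one, read 17.71, 16.96 and 17.73 in MBELN 1, 2 and 3, against 10.28, 9.74 and 9.73 in PBS 1, 2 and 3 (difference 7.55 ± 0.35, SE; limma, adjusted p = 8.00e-04). Got2, the mitochondrial one, rose by 6.27 ± 0.60 (adjusted p = 0.00557). All 3 MBELN arrays were above 16 for both. Gut epithelial medians were 3.42 to 5.68 in MBELN and 17.68 to 17.87 in PBS. Heart muscle medians were 18.43, 3.53 and 18.70 in MBELN 1, 2 and 3, and 3.80 to 4.04 in PBS. Neuronal medians were 3.63, 15.56 and 3.55 in MBELN 1, 2 and 3, and 3.75 to 4.05 in PBS. The part of these tissues in the values of Got1 and Got2 was not tested. G6pc3, a phosphatase of the same family as G6pc, rose by 2.16 ± 0.30, and Pgm2, a phosphoglucomutase, fell by 5.68 ± 0.30 (adjusted p = 0.0178 and 0.00111).

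Of 20 measured glycogen genes, 1 rose, 0 fell and 19 did not pass (1 of 20 called, a share near the 5.18% of all probe sets), with a median difference of 2.05. The 1 was Epm2a, the glycogen phosphatase laforin, which read 5.58, 4.83 and 6.04 in MBELN 1, 2 and 3, against 3.48, 3.45 and 3.06 in PBS 1, 2 and 3. The PBS values were below the receptor level, so the rise is at least 2.48-fold (limma, adjusted p = 0.0413). For 10 of the 20 glycogen genes the MBELN values lay entirely above the PBS values, and for 0 entirely below. Together these are 50%, beside 25.3% of all probe sets and 30.8% of those above the receptor level in at least 1 array. Of 22 measured regulators, 2 rose, 1 fell and 19 did not pass, with a median difference of -0.03. The share called was 13.6%, beside 5.18% of all probe sets and 11.1% of those that the dim filter kept. All 22 lay above the receptor level in at least 1 array. Mlx, the partner of the carbohydrate response factors, read 8.46, 8.02 and 9.09 in MBELN 1, 2 and 3, against 13.41, 13.33 and 13.73 in PBS 1, 2 and 3 and fell by 4.97 ± 0.36 (adjusted p = 0.00247). Mef2a, a factor of muscle and neurons, rose by 2.82 ± 0.39 (adjusted p = 0.0177). Esrrg, an oestrogen-related receptor active in tissues of high energy use, rose by 2.73 ± 0.47 (adjusted p = 0.0342).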

How the data were processed

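The members and lists were chosen with earlier results of these data known. Per the labels' protocols, Trizol-extracted total RNA (90 ng) was labelled with biotin as cRNA for Affymetrix arrays, and an Ion AmpliSeq assay is named beside this without explanation. The submitters' processing notes name Transcriptome Analysis Console 4.0. How values were summarized and normalized, and the genome build, is not given in the sources used here. Each column of the deposited table holds a value for each probe set of an array, read as log2 because its medians lay between 4.38 and 4.55 and its highest value was 19.93, so the scale is inferred.

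Of the probe sets, 6640 array controls stayed out, leaving 22206, of which 19572 had 1 gene symbol, 0 had several and 2634 had none. Entrez identifiers kept all 36 members' symbols in a gene table of assembly GRCm38.p6. A two-sided limma fit (version 3.58.1, R 4.3.3, lmFit then eBayes, no covariates) compared MBELN with PBS on all 22206, with p-values adjusted by Benjamini-Hochberg and called under 0.05. Residual degrees of freedom were 4 and prior ones 1.66. A positive difference is higher in MBELN. A fold is given as "at least" where all arrays of a group lay below their receptor levels and all of the other group above. It is the brighter group's mean over the mean of those levels. Isozyme differences used the exact permutation test of scipy 1.17.1. The number of arrays limits the precision. The procedure was tested on simulated data.

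Values in every array are given for called members, for isozyme pairs whose groups do not overlap, for Gapdh, Ldha and G6pc, and for members that the text names as singled out after their values were seen. Of each pathway list, up to 4 called genes with the smallest p are named. Alternatives were quantile normalization, median centring, a dim filter, array weights, a trended robust variance, a replicate block, the other choice of probe set and each array left out. Those without PBS 2 and MBELN 2 and with a block for hybridisation control level were added after seeing the data.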

Additional observations from a re-analysis of the deposited data

How the results depend on the processing

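The 4 member calls stayed under quantile normalization, median centring, the dim filter and the trended robust variance. With array weights 19 members and 5757 of all probe sets passed, and without PBS 2 and MBELN 2 it was 26 and 6769. Leaving out 1 array at a time gave 3 to 14 members and 377 to 3738 probe sets. The lowest counts of all probe sets came without PBS 1 (377) and PBS 3 (379), and the largest without MBELN 2. A block for hybridisation control level let 6 members and 6.19% of all probe sets pass, Pck1 and Slc16a1 being added. The differences of Aldoc and Slc16a1 reversed without PBS 2 and MBELN 2, to -1.50 and 1.28, and passed there, and the cause was not tested. Both also changed sign with array weights, Aldoc without MBELN 2 alone and Slc16a1 without PBS 2 alone, without passing. Hk2, Pgk1, Eno2, Pck2 and Slc2a1 changed sign in some settings too, and none passed with the changed sign. No member has a second probe set, so that choice changed nothing.

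With the replicate number as a block, 1 member (Ldhb) and 456 probe sets passed. The adjusted p was 0.0553 for Pfkm, 0.0873 for Pklr and 0.067 for Fbp1. Deviations of same-numbered arrays from their group means correlated at -0.03, -0.07 and -0.06, which showed no pairing by number. Arrays of a group also differed in tissue markers, so these correlations cannot exclude a pairing. Aldoc minus Aldoa changed sign with dim values set at the receptor level (0.04), and without MBELN 1 or MBELN 3. Signal at the top of the scale limits Gapdh, and values under the receptor level have no order. Aldoa in MBELN (19.25 to 19.67) and Ldha in PBS 2 (19.42) also lay near the top, so their differences may be understated.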

Other observations

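Genes beside the pathway, named here after their values were seen, sorted by array as the isozymes did. Pygm, the muscle glycogen phosphorylase, read 17.48, 8.01 and 17.68 in MBELN 1, 2 and 3, against 4.43, 4.35 and 5.47 in PBS 1, 2 and 3. Pygb, the brain form, read 13.37, 9.82 and 14.08 in MBELN 1, 2 and 3, against 9.28, 9.30 and 9.41 in PBS 1, 2 and 3, and was highest in MBELN 1 and 3 and not in MBELN 2. For both genes all MBELN values lay above all PBS values without passing the threshold (limma, adjusted p = 0.134 and 0.238). Ppp1r3a, which tethers a phosphatase to glycogen in striated muscle, read 13.66, 2.88 and 12.99 in MBELN 1, 2 and 3, against 3.40, 3.36 and 3.67 in PBS 1, 2 and 3, high in MBELN 1 and 3 only. Mpc1, a subunit of the mitochondrial pyruvate carrier, read 19.32, 13.76 and 19.43 in MBELN 1, 2 and 3, against 13.77, 16.14 and 14.32 in PBS 1, 2 and 3, and MBELN 2 was the lowest of the 6.

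Slc5a1, the sodium-coupled glucose transporter of the small intestinal brush border, read 5.16, 2.59 and 5.82 in MBELN 1, 2 and 3, against 16.79, 10.05 and 17.11 in PBS 1, 2 and 3, so that PBS 2 stood between the other PBS arrays and the MBELN arrays (limma, adjusted p = 0.0604). Hkdc1, a hexokinase family member, read 3.06, 2.57 and 3.61 in MBELN 1, 2 and 3, against 10.87, 3.03 and 10.90 in PBS 1, 2 and 3, above the receptor level in PBS 1 and 3 only. Slc2a5, the fructose carrier, read 2.83, 4.20 and 4.09 in MBELN 1, 2 and 3, against 8.95, 3.36 and 8.13 in PBS 1, 2 and 3, and Tkfc, which phosphorylates a product of fructose breakdown, read 5.57, 3.85 and 3.39 in MBELN 1, 2 and 3, against 12.30, 4.76 and 11.59 in PBS 1, 2 and 3. Both were highest in PBS 1 and 3, as Khk was.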
